A study of Naumovozyma castellii with 24 samples.

Results

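The mitochondrial ribosomal protein genes of the yeast Naumovozyma castellii were taken as all genes whose annotated symbol begins with MRPL, MRPS, MRP or RSM followed by a digit. The rule found 66 genes among the 5648 genes in the count tables, and all 66 were abundant enough to be tested. By their S. cerevisiae counterparts, 37 belong to the large subunit and 27 to the small subunit. The remaining pair is RSM22, a methyltransferase-like protein linked to the small subunit, and MRP8, which in S. cerevisiae is not a subunit of the ribosome despite its name. Of the large-subunit genes, 24 have a bacterial counterpart and 13 are specific to mitochondria, and of the small-subunit genes 17 and 10, respectively.

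Mitochondrial ribosomes make the few proteins encoded by mitochondrial DNA, most of which are core subunits of the respiratory chain and the ATP synthase. In S. cerevisiae nearly all of their proteins are encoded in the nucleus, made in the cytosol and imported. Large-subunit proteins surround the site of peptide bond formation and the exit tunnel, and small-subunit proteins surround the site where messages are decoded.

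The study asked how low oxygen, cobalt and the ROX genes shape transcript levels in N. castellii. Rox1 represses hypoxic genes in S. cerevisiae, and cobalt chloride (CoCl2) is widely used to mimic hypoxia. All strains had the DBP004 background, and all cultures grew in the rich medium YPD at 30 °C. In the deletion experiment, wild type (WT), rox1-/-, rox2-/- and rox1/rox2-/- cells grew to an A600 of 1 and then for 2 h more, without CoCl2 or with 0.6 mM CoCl2. WT and rox2 without CoCl2 had 3 libraries each, and the other 6 groups had 2 each, with single-end reads of 42 bp. The oxygen experiment held WT cells for 6 h at 21% oxygen (normoxia) or at 1% oxygen (hypoxia), with 3 libraries each and paired-end reads of 90 bp. Both experiments used strand-specific libraries, but they were made and sequenced at different places, so they were fitted apart.

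Reads assigned to genes came to between 5585196 and 12738873 per library in the deletion experiment and between 11993105 and 12181501 in the oxygen experiment. A member had at least 59 reads (MRPL33) in every library of the first and at least 136 (MRP35) in every library of the second. ROX1 itself had 0 or 1 read in the 8 libraries labelled rox1 or rox1/rox2 and 107 or more in the others, as the labels state. The files name no gene ROX2. Reads outside genes were 14.5% of the total in rox2 replicate 3 and 19.9% in rox2 CoCl2 replicate 1, against 4.52% to 10.5% in the other libraries.

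The genes were short, and their levels lay close together. Their median coding length was 703.5 bp, against 1242 bp for all genes with a length. In TPM, which divides reads by coding length before scaling to the library, the median member stood at 57.3 in WT and the median gene at 36.9. The upper quartile of the members was 1.55 times the lower quartile in WT, where for all genes it was 5.32 times. In normoxia the ratio was 1.96 for the members and 4.27 for all genes. MRPS16, a counterpart of a bacterial small-subunit protein, had the highest TPM of the members in both, 165.3 in WT and 342.1 in normoxia. The lowest was MRP8 in WT, at 27.6, and MRP17 in normoxia, at 46.3.

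The summed level of the 66 genes, in counts scaled to library size (CPM), was lower at 1% oxygen. It was 5379, 5186 and 5432 CPM in the normoxia libraries and 4671, 4626 and 4567 CPM in the hypoxia libraries. Every hypoxia library lay below every normoxia library, for the large subunit (2582 to 2610 against 2923 to 2968 CPM) as for the small subunit (1777 to 1881 against 2067 to 2243 CPM). In the deletion experiment the sums were 2869, 2901 and 3043 CPM in WT and 3771 and 2886 CPM in WT CoCl2, so that one cobalt library lay above the untreated ones and the other among them. The CoCl2 libraries of rox1 (3412 and 3320 CPM), rox2 (4377 and 3527 CPM) and rox1/rox2 (4288 and 3835 CPM) all lay above those of the same strain without CoCl2, which reached 3237, 3410 and 3351 CPM, respectively. In bulk RNA a sum of this kind cannot tell fewer transcripts per cell from a larger share taken by other genes.

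**Figure D1:**
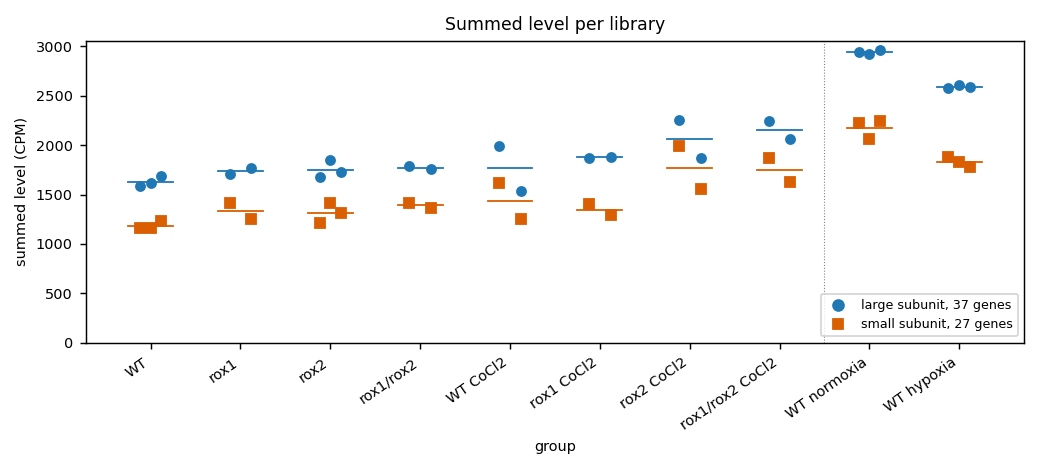
Summed CPM of the 37 large-subunit genes (circles) and the 27 small-subunit genes (squares) in each library, by group, with a line at the mean of each group. The dotted line parts the deletion experiment from the oxygen experiment, and the hypoxia libraries lie below all 3 normoxia libraries for both subunits.

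Low oxygen lowered 12 of the 66 genes and raised none. Across all genes tested, 3.85% were called lower and 2.64% higher (edgeR quasi-likelihood test, Benjamini-Hochberg adjusted p under 0.05). The differences were small and pointed one way: 64 of 66 were negative, with a median log2 fold change of −0.20, where the median of all genes was −0.0029. In 42 members every hypoxia library was below every normoxia library, against 13.8% of all genes, and 44 members had an unadjusted p under 0.05, against 22.1% of all genes. The largest fall was 0.78 on the log2 scale, and none reached 2-fold, past which 0.36% of all genes were lower.

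Of the 27 small-subunit genes, 6 fell, and all 27 were negative, with a median of −0.23. RSM18, a counterpart of a bacterial small-subunit protein, fell furthest. It stood at 100.3, 68.5 and 89.7 CPM in normoxia and at 58.4, 45.2 and 46.9 CPM in hypoxia. The groups did not overlap, although normoxia replicate 2 was nearer to the hypoxia libraries than replicates 1 and 3 were, and the log2 fold change was −0.78 (SE 0.14, adjusted p = 0.00961). MRP51, tied genetically to the translation of the COX1 and COX2 messages in S. cerevisiae, gave 98.8, 91.7 and 96.3 CPM in normoxia and 71.5, 71.6 and 74.1 CPM in hypoxia. The libraries of each condition lay close together, with a wide gap between the conditions, and the log2 fold change was −0.40 (SE 0.055, adjusted p = 0.00194). RSM7 stood at 78.9, 84.5 and 81.1 CPM in normoxia and at 59.5, 66.0 and 60.7 CPM in hypoxia, again with no overlap (−0.39, SE 0.063, adjusted p = 0.00488). MRP21, at −0.46, RSM10, at −0.39, and MRP10, at −0.29, also fell.

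Of the 37 large-subunit genes, 6 fell and 36 were negative, with a median of −0.18. MRPL37 and MRPL27, both specific to mitochondria, fell furthest. MRPL37 gave 22.0, 18.5 and 24.6 CPM in normoxia and 14.5, 14.8 and 15.8 CPM in hypoxia (log2 fold change −0.53, SE 0.12, adjusted p = 0.0331). MRPL27 gave 29.6, 28.7 and 29.6 CPM in normoxia and 18.6, 21.8 and 22.0 CPM in hypoxia (−0.49, SE 0.093, adjusted p = 0.0123). In both genes the conditions were apart, with no overlap. The call of MRPL37 was lost under 6 alternatives, a correction for coding length among them, and that of MRPL27 under 2. The other falls were those of MRPL49 (−0.33), MRPL36 (−0.31), MRPL44 (−0.29) and MRPL3 (−0.22). The only positive values in the whole set were those of MRPL11 at 0.03 and MRP8 at 0.12, neither of them called.

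The count was 3, 19 and 6 without normoxia replicate 1, 2 and 3 (3.04%, 7.38% and 6.25% of all genes). It was 4, 5 and 6 without hypoxia replicate 1, 2 and 3 (3.47%, 3.49% and 4.22% of all genes). The members' median stayed between −0.23 and −0.19. With the replicate number as a block, 31 members were called lower, against 7.9% of all genes in that fit, and none higher. The log2 fold change rose with coding length, with a rank correlation of 0.21 across 5502 genes and 0.25 across the 66 members. With a correction for length 11 members were called lower, against 4.16% of all genes, with a median of −0.17. MRP51 and RSM7 were the 2 members called under every alternative tried.

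**Figure D2:**
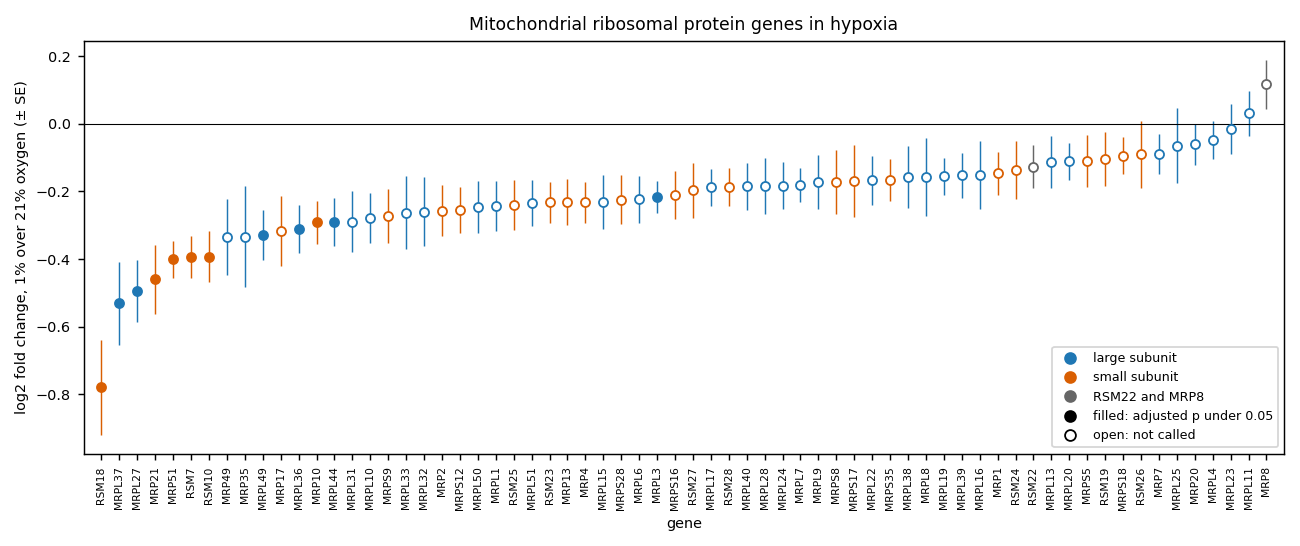
Log2 fold change at 1% over 21% oxygen for each of the 66 genes, ordered by size, with standard errors as bars and colours for the subunit; filled points passed the adjusted p threshold of 0.05. All but MRPL11 and MRP8 lie below 0, and RSM18 stands apart at −0.78.

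Other genes of mitochondrial translation and respiration had falls and no rises. Of 13 mitoribosomal proteins under other names, 5 fell (median −0.23), led by MHR1 (−0.37), which in S. cerevisiae also acts in mitochondrial DNA recombination. Of 14 mitochondrial translation factors, 2 fell, led by the elongation factor MEF1 (−0.44), and of 13 mitochondrial aminoacyl-tRNA synthetases 2 fell, led by SLM5 (−0.31). Of 11 genes for assembly and ribosomal RNA modification, 3 fell, led by MAM33 (−0.28). Among 36 genes of the respiratory chain or ATP synthase, 18 were lower (median −0.32), led by CYC1 for cytochrome c (−1.44). By edgeR's test none was called among the 18 translational activators, the 9 genes for mitochondrial DNA and transcription, the 13 regulators of nuclear genes for mitochondria or the 107 cytosolic ribosomal protein genes, whose median was −0.05.

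CoCl2 in WT raised 14 of the 66 genes and lowered 4, in each direction a smaller share than among all genes. Among all genes 27.7% were called higher and 19.4% lower, and the members' median log2 fold change was 0.15 against 0.0020 for all genes. At least 2-fold higher were 2 of the 66, against 14.8% of all genes. Of the small-subunit genes 9 rose and 1 fell, and of the large-subunit genes 4 rose and 2 fell. The other calls were the rise of MRP8 and the fall of RSM22.

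MRP8 rose most, from 20.2, 19.1 and 19.1 CPM in WT to 96.5 and 37.9 CPM with CoCl2. Both cobalt libraries were above all 3 untreated ones, but they differed from each other by more than the lower one differed from WT (log2 fold change 1.79, SE 0.36, adjusted p = 0.00128). Among true subunits MRPL16, a counterpart of a bacterial large-subunit protein, rose most, from 27.1, 26.4 and 28.5 CPM to 83.2 and 56.2 CPM (1.35, SE 0.33, adjusted p = 0.00438). Without WT CoCl2 replicate 1 neither was called any longer, with adjusted p of 0.0682 for MRP8 and 0.0716 for MRPL16. RSM28, a small-subunit protein specific to mitochondria, rose from 44.3, 43.8 and 45.0 CPM to 90.9 and 73.5 CPM, a gap far wider than the spread of the untreated libraries (0.89, SE 0.15, adjusted p = 0.000399). MRPS5 (0.87), RSM18 (0.79) and MRPL10 (0.77) followed.

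RSM22 fell furthest, from 100.7, 104.1 and 109.6 CPM to 55.9 and 64.4 CPM. The cobalt libraries were well below the untreated ones (log2 fold change −0.80, SE 0.19, adjusted p = 0.00351). MRPL44, a large-subunit protein specific to mitochondria, fell from 22.5, 23.3 and 23.4 CPM to 17.9 and 13.8 CPM (−0.54, SE 0.16, adjusted p = 0.0134). MRP20 (−0.50), which lies at the exit tunnel, and MRPS16 (−0.44) also fell. The calls of RSM22, MRPL44, MRP20 and MRPS16 were lost under 1, 3, 5 and 8 alternatives, respectively. For MRPS16 these included leaving out any 1 of the WT or WT CoCl2 libraries. Scaled to total counts, which shifts the median of all genes by 0.25, 22 members were called higher, against 33.8% of all genes. In that fit 1 member was lower, RSM22, against 11.2% of all genes. Without WT CoCl2 replicate 1 fewer members were called, as were fewer of all genes, and the members' median was −0.05. MRPL10, MRPS5, RSM10 and RSM28 were called under every alternative.

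In the same cells the respiratory chain and ATP synthase genes and the cytosolic ribosomal protein genes changed much more. Of 36 respiratory genes 34 rose, with a median of 1.98, led by the external NADH dehydrogenase NDE1 (4.66). Of 107 cytosolic ribosomal protein genes 88 fell, with a median of −1.23, led by RPL43B (−2.31). Their share of reads in genes was 5.38% and 8.82% in the WT CoCl2 libraries and 14.7% to 15.7% in WT; its part in the scaling of the members was not tested beyond the total-count scaling above. Translational activators rose in 8 of 18 cases, led by PET111 (1.51), which activates COX2 translation in S. cerevisiae. Aminoacyl-tRNA synthetases gave 6 rises, led by MSD1 (1.65), and the fall of MSW1 (−0.95). The list of translation factors gave 3 rises, led by HER2 (0.96), which is not a translation factor in the strict sense. The assembly genes gave 2 rises, led by MAM33 (0.40), and 4 falls, led by the RNA helicase MSS116 (−1.07). Mitoribosomal proteins under other names gave 2 rises, led by EHD3 (0.95), and 2 falls, led by FYV4 (−0.61). Of the genes for mitochondrial DNA and transcription, ABF2, which packages mitochondrial DNA, rose (0.84), and 2 fell, led by the transcription factor MTF1 (−0.42). Among the regulators 5 rose, led by CAT8 (4.09), and 4 fell, led by ABF1 (−1.30).

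**Figure D3:**
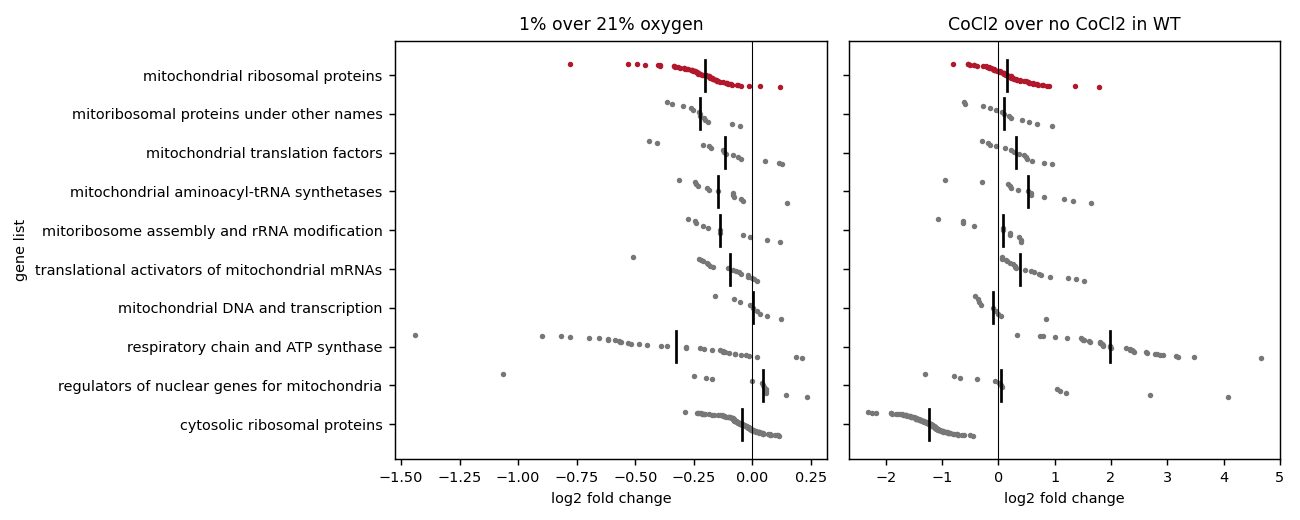
Log2 fold change of each gene (points) and the median (black line) for the mitochondrial ribosomal protein genes (red) and 9 other lists (grey), at 1% over 21% oxygen on the left and with CoCl2 in WT on the right. On the right the respiratory genes have a median of 1.98 and the cytosolic ribosomal protein genes one of −1.23, with the mitochondrial ribosomal protein genes between them at 0.15.

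The responses to low oxygen and to CoCl2 in WT, which share no library, had no clear linear relation across the members. Pearson's r across the 66 genes was −0.0049, and across 5525 genes it was −0.14. RSM18, RSM10 and MRP51, all of the small subunit, fell in hypoxia and rose with CoCl2, as did 105 genes in all. RSM10 stood at 78.0, 75.2 and 83.1 CPM in normoxia and 58.3, 55.7 and 65.8 CPM in hypoxia. In the deletion experiment it stood at 38.4, 39.6 and 37.5 CPM in WT and 59.6 and 66.2 CPM in WT CoCl2. Neither pair of groups overlapped, with opposite order. MRPL44 was the member that fell in both, and 8 members fell in hypoxia and were not called with CoCl2.

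The same comparison was made in each deletion strain, and the differences between strains are tested separately. In rox1, MRPS5 was the one member called, higher, where 4.85% of all genes rose and 3.21% fell. In rox2, 22 rose and 4 fell, against 26.3% and 21.8% of all genes, with a median of 0.27. In rox1/rox2, RSM28 was the one member called, higher, against 4.38% and 1.41% of all genes, yet 63 of 66 members were positive, with a median of 0.29. In 53 of them both cobalt libraries lay above both untreated ones, against 32.4% of all genes. The call in rox1 was lost without rox1 replicate 1 or either rox1 CoCl2 library, in fits that leave 1 library in a group. Without rox1 replicate 2 more members were called, as were more of all genes. The call in rox1/rox2 was lost without any 1 of its 4 libraries. In rox2 fewer members were called without rox2 CoCl2 replicate 1, as were fewer of all genes.

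In rox2 the largest rises were those of MRP8 (log2 fold change 1.72), MRPL16 (1.36) and RSM18 (1.35). RSM18 gave 33.6, 33.7 and 66.0 CPM in rox2 and 125.9 and 98.8 CPM in rox2 CoCl2, so that untreated replicate 3 stood apart from its group but still below both cobalt libraries. MRPL16 gave 32.1, 35.6 and 34.1 CPM in rox2 and 112.4 and 63.0 CPM in rox2 CoCl2. The falls were led by RSM22 (−1.08), from 101.3, 125.3 and 78.9 CPM to 41.2 and 54.8 CPM, MRPL1 (−0.59) and MRP7 (−0.57), both of the latter counterparts of bacterial large-subunit proteins. Of the 26 calls in rox2, 8 held under every alternative: MRPL19, MRPL38, MRPL40, MRPL9, MRPS18, MRPS5, RSM18 and RSM22. MRPL16 was no longer called without rox2 CoCl2 replicate 1, MRP7 with total counts, and MRPL1 under 5 alternatives, single libraries left out among them.

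Averaged over the 4 strains, 27 members rose and 3 fell, against 32.8% and 29.6% of all genes, with a median of 0.22. MRPL16 (1.12), MRP8 (1.11) and MRPS5 (0.79) rose most, and RSM22 (−0.53), MRPL44 (−0.22) and MRPL3 (−0.14) fell. With total counts as the scale, which shifts the median of all genes by 0.19, 49 members rose and 1 fell. Among all genes 43.9% rose and 16.5% fell in that fit. MRPL3 changed sign to 0.06 and was not called. The MRPL3 call was also lost in 5 fits with 1 library left out. The call of MRPL44 was lost under 9 alternatives, with total counts, the replicate block and single libraries left out among them. MRPS5 and RSM28 rose in 3 of the 4 strains, and no member rose in all 4. The sign was positive in all 4 strains for 27 members and negative in all 4 for MRPL44 alone. In rox1/rox2 the mean of MRPL44 was 24.0 CPM without CoCl2 and 23.5 CPM with it. Across the 66 genes the cobalt effects in WT and rox2 had an r of 0.71 (all genes 0.87), those in WT and rox1/rox2 0.61 (0.83) and those in WT and rox1 0.33 (0.59); these pairs share no library but were fitted together.

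**Figure D4:**
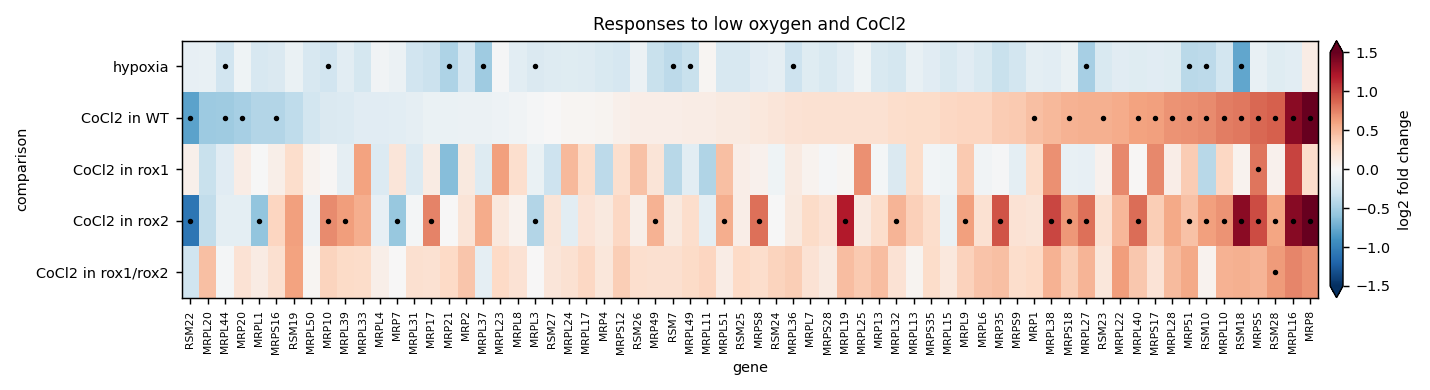
Log2 fold change of each of the 66 genes (columns, ordered by the change with CoCl2 in WT) in hypoxia and with CoCl2 in each of the 4 strains (red higher, blue lower, colours ending at 1.5). Dots mark calls at an adjusted p under 0.05: 12 in hypoxia, 18 in WT, 1 with CoCl2 in the rox1 strain, 26 for rox2 and 1 for rox1/rox2.

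Without CoCl2 none of the deletions gave a called member by edgeR's quasi-likelihood test; the 3 comparisons share the WT libraries. Of all genes, edgeR called 0.0541% for the rox1 deletion, 0.0722% for rox2 and 0.108% for the double deletion. At an unadjusted p under 0.05 stood 10 members in rox1 (8.37% of all genes), 5 in rox2 (7.32%) and 9 in rox1/rox2 (16.9%). DESeq2 called 1 member in rox1, MRPS18 (0.8% of all genes), 1 in rox2, MRPS5 (1.16%), and 3 in rox1/rox2, MRP8, MRPS18 and MRPS5 (2.95%). Fitted on the rox1/rox2 and WT libraries alone, edgeR called 27 members in rox1/rox2, where it called 50.9% of all genes. In rox1, 7 members were called without replicate 2, where 5.24% of all genes were.

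With CoCl2 in all cultures, rox1 cells had 3 members higher than WT (4.65% of all genes) and 2 lower (12.9%). RSM22, at 109.6 and 129.1 CPM in rox1 CoCl2 and 55.9 and 64.4 CPM in WT CoCl2, was the highest (log2 fold change 0.99, SE 0.20, adjusted p = 0.00645). MRPL44 (0.69) and MRP20 (0.63) were also higher, and MRP8 (−1.61) and MRPL40 (−0.51) were lower. The cobalt libraries of rox1 thus stood near the untreated WT libraries for RSM22 and MRPL44 (25.1 and 26.4 CPM, against 22.5 to 23.4 CPM in untreated WT). Without WT CoCl2 replicate 1 or without rox1 CoCl2 replicate 2 fewer members were called, as were fewer of all genes. Both fits leave 1 library in a group.

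In rox2 with CoCl2, 8 members were higher than in WT with CoCl2, against 2.69% of all genes, and none was lower (0.884%). They were MRP10 (1.22), RSM18 (1.10), MRPL19 (0.98), MRP17 (0.96), MRPL39 (0.94), MRPS5 (0.82), MRPS16 (0.79) and MRP49 (0.64). This comparison followed coding length: the log2 fold change had a rank correlation with length of −0.74 across 5488 genes and −0.65 across the 66 members, with shorter genes higher in rox2. With a correction for length no member was called, and 0.0541% of all genes were. Fewer members were also called without either WT CoCl2 library or without rox2 CoCl2 replicate 1, as were fewer of all genes. These fits leave 1 library in a group.

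In rox1/rox2 with CoCl2 edgeR called no member, where 1.24% of all genes were higher and 3.77% lower; 16 members had an unadjusted p under 0.05 (18.5% of all genes) and DESeq2 called 1, MRPL20 (8.44%). Without WT CoCl2 replicate 1, which leaves 1 library in that group, some members were called, though fewer of all genes were. The median was 0.32, with 61 of 66 members positive. The log2 fold change had a rank correlation with coding length of −0.22 across 5488 genes and −0.22 across the 66 members.

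Tests of the cobalt response itself between strains gave 1 call. RSM10 rose with CoCl2 in WT and stood at 66.1 and 45.5 CPM in rox1 and 38.1 and 45.7 CPM in rox1 CoCl2, so that the change in rox1 was lower than that in WT by 1.12 on the log2 scale (interaction log2 −1.12, SE 0.29, adjusted p = 0.0454). Of all genes 3.90% had a lower and 0.812% a higher response in rox1. The call was lost when any 1 library of the groups compared was left out, except for rox1 replicate 2. Without rox1 replicate 2 more members were called, as were more of all genes. Without WT CoCl2 replicate 2 other members were called. For rox2 edgeR called no member (0.0902% of all genes), with 10 at an unadjusted p under 0.05 (13.9%). DESeq2 called 1, MRPL39 (2.65%), the shortest member at 210 bp. Without rox2 replicate 3, 2 members were called (2.96%). The rox2 response followed coding length, with a rank correlation of −0.64 across 5488 genes and −0.71 across the 66 members. For rox1/rox2 edgeR called none (0.397% of all genes), with 6 at such a p (14.8%) and 0 by DESeq2 (4.15%).

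**Figure D5:**
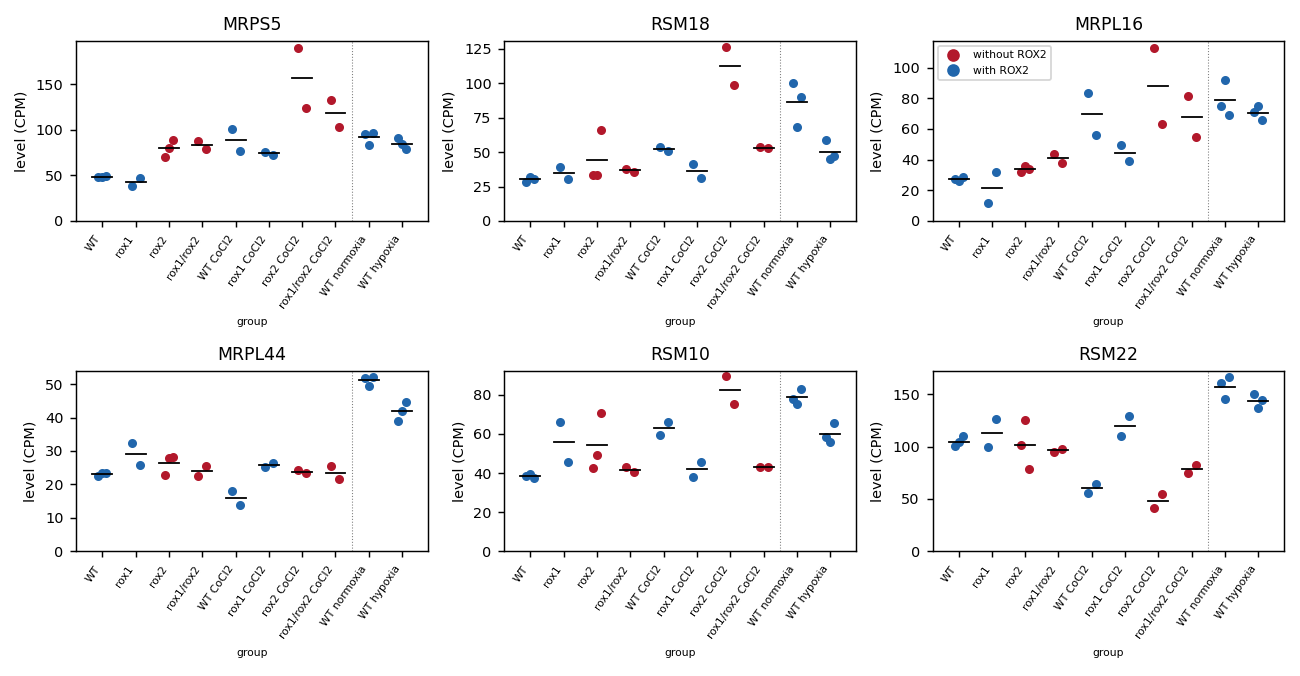
CPM in every library (points) with the group mean (line) for 6 members named in the text, on axes that start at 0. Red points are strains without ROX2 and blue points strains with it; for MRPS5 all red points lie above the blue points of the same treatment within the deletion experiment.

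MRPS5, a counterpart of a bacterial small-subunit protein, was higher in the libraries without ROX2. It stood at 48.2, 48.4 and 49.3 CPM in WT and 38.1 and 46.9 CPM in rox1, but at 69.5, 79.7 and 89.0 CPM in rox2 and 87.5 and 79.2 CPM in rox1/rox2. With CoCl2 it stood at 100.8 and 76.3 CPM in WT and 75.6 and 72.4 CPM in rox1, but at 189.8 and 123.6 CPM in rox2 and 133.0 and 103.4 CPM in rox1/rox2. It was the only one of the 66 genes whose libraries without ROX2 were all above those with ROX2, both without and with CoCl2. Without CoCl2 3 members were above in this way (2.62% of all genes), with CoCl2 8 (2.40%), and in both 1 (4 of 5544 genes). These counts were not corrected for coding length. With CoCl2 the change in rox2 against WT followed length, with a rank correlation of −0.74 across 5488 genes and −0.65 across the members. At 1% oxygen MRPS5 was not called (−0.11).

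A comparison of the 4 groups without ROX2 with the 4 groups with it, chosen after these values were seen, gave MRPS5 a log2 difference of 0.79 (SE 0.0995). Since it was chosen for this separation, that value is a description and not a further test. In the RefSeq annotation, MRPS5 is the neighbour of NCAS0E02010, which had 0 reads in all 9 libraries without ROX2 and 18 to 172 reads in the other 9 of that experiment. Any part of that locus, or of the deletion itself, in the level of MRPS5 was not tested. The same comparison called 15 members higher and 1 lower without ROX2, against 8.64% and 7.77% of all genes. With the correction for length it called 3 in all, against 8.3% of all genes. The matching comparison for ROX1 called 8 higher and 3 lower, against 7.97% and 9.79% of all genes. Leaving out single libraries changed the calls widely for both ROX2 and ROX1, and the share of all genes called changed as well.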

How the data were processed

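RNA-seq counts were deposited by the authors as whole-number read counts per exon or gene; the submitters' processing notes name TopHat2 and HTSeq 0.6.0. The genome build, annotation and strand setting are not given in the sources used here. Exon counts were summed per gene, and symbols, coding lengths and gene order came from the RefSeq table for assembly ASM23734v1, which matched 5589 of 5648 genes. Counts that HTSeq assigned to no gene were 4.52% to 19.9% of reads in or outside genes and were left out.

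Each experiment was fitted with edgeR 4.0.16 (R 4.3.3): TMM scaling, filterByExpr with its minimum count of 10 (5544 and 5559 genes tested), quasi-likelihood F-tests, two-sided, and Benjamini-Hochberg adjustment over all genes tested, with calls at 0.05. The 8 groups of the deletion experiment shared 1 estimate of spread (square root of the common dispersion 0.199, against 0.068 in the oxygen experiment). CPM use the TMM-scaled library sizes and TPM the coding lengths; SE is that of the log2 fold change. The procedure was tested on simulated data. DESeq2 1.42.0, other scalings, no filter, a replicate block, a loess correction for coding length, fits on the groups compared alone and leaving out libraries were the alternatives.

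The design text calls the samples biological replicates, with 2 or 3 a group. Each p-value sets a difference against the spread between such samples, which in the deletion experiment was pooled over the 8 groups. That spread was unequal there: the median SD of a member's log2 level ran from 0.076 in WT to 0.265 in WT CoCl2. Same-numbered oxygen libraries deviated together (r of 0.15, 0.31 and 0.14), so the block is given beside that result. In the deletion experiment r ran from −0.31 to 0.33 without a common sign, and the labels do not say whether the numbers pair samples. The members and lists were chosen with earlier results of these data known. Named genes are the largest called changes per comparison (6 each way in hypoxia and in CoCl2 in WT with groups apart, 3 elsewhere), members called in both, the leading genes of each other list, and MRP8. MRPS18, MRPL39, MRPL20 and other members in short lists of calls, and the MRPS5 comparison by ROX2, were added after values were seen.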

Additional observations from a re-analysis of the deposited data

Results flagged for a closer look

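RSM10, a small-subunit gene, differed between strains in its response to CoCl2: the interaction of rox1 against WT was −1.12 on the log2 scale (SE 0.29, adjusted p = 0.0454, edgeR's quasi-likelihood test). Both cobalt libraries of WT were above the 3 untreated ones, while in rox1 replicate 2 without CoCl2 lay among the cobalt libraries. Replicate 1 of rox1, at 66.1 CPM, was the one untreated rox1 library above them. Without it the call was lost.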

How the results depend on the processing

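Counts of called members not mentioned here stayed within 1.5 times of the reported one. Percentages in brackets are the share of all genes called in the same fit, in either direction. With the replicate block, hypoxia went from 12 to 31 (13.3%). The rox1 response went from 1 to 4 (7.85%) and ROX1 absent from 11 to 5 (12.5%). The block moved no other count by over 1.5 times. With the rox1 CoCl2 numbers crossed, 1 member was called for CoCl2 in rox1 (7.25%). In the deletion experiment the deviations of same-numbered libraries had correlations of −0.31 to 0.33, and the labels give only a replicate number. RLE scaling gave 0 for CoCl2 in rox1/rox2 (5.5%). Total counts gave 0 for CoCl2 in rox1 (6.53%) and in rox1/rox2 (5.07%), and 50 for the mean of the 4 strains (60.4%). They gave 2 for rox1 with CoCl2 (14.1%), 0 for rox2 with CoCl2 (1.86%) and 0 for the rox1 response (1.53%). They also reversed MRPL3 in the mean of the 4 strains (0.0605). DESeq2 gave 2 for CoCl2 in rox1 (13%). Without CoCl2 it gave 1 for rox1 (0.8%), 1 for rox2 (1.16%) and 3 for rox1/rox2 (2.95%). It gave 1 for rox1/rox2 with CoCl2 (8.44%), 4 for the rox1 response (11.4%) and 1 for the rox2 response (2.65%). The length correction gave 0 for rox2 with CoCl2 (0.0541%), 2 for the rox1 response (4.46%) and 3 for ROX2 absent (8.3%). Fits on the groups compared alone gave 0, 16 and 0 for CoCl2 in rox1, rox2 and rox1/rox2, 1 for rox2 and 27 for rox1/rox2 without CoCl2, 0 for rox1 and for rox2 with CoCl2, and 1 for the rox1/rox2 response. Leaving out both rox2 libraries with many reads outside genes, chosen after seeing the data, left 1 library in rox2 CoCl2. For CoCl2 in rox2 and for ROX2 absent fewer members were called, as were fewer of all genes. For rox2 with CoCl2 fewer members but more of all genes were called, and for the rox2 response more of both. The causes were not tested.

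Leaving out 1 library at a time gave 3 to 19 for hypoxia, 7 to 22 for CoCl2 in WT, 0 to 14 in rox1, 15 to 28 in rox2, 0 in rox1/rox2 and 23 to 38 for the mean. Without CoCl2 it gave 0 to 7 for rox1 and 0 for rox2 and rox1/rox2. With CoCl2 it gave 0 to 4 for rox1, 0 to 6 for rox2 and 0 to 2 for rox1/rox2. It gave 0 to 8 for the rox1 response, 0 to 2 for the rox2 response, 0 for the rox1/rox2 response, 3 to 14 for ROX1 absent and 3 to 24 for ROX2 absent. Where this left 1 library in a group, that library was assumed to vary like the other groups. The share of all genes called changed between these fits as well, so a count of members alone does not set the members apart. Over the named genes, 709 alternative values kept direction and call, 153 kept direction only and 1 reversed. Groups of 2 libraries, and 59 reads for the lowest member, limit the precision.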

Other observations

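The untreated rox1 libraries differed widely from each other at several members, which were picked after their values were seen. MRPL33 stood at 7.51 CPM in replicate 1 and 27.8 CPM in replicate 2, against 21.9 to 24.2 CPM in WT. MRPL16 stood at 11.5 and 32.0 CPM, and MRPL22 at 25.6 and 60.1 CPM. RSM7 had the opposite order, at 97.7 and 47.3 CPM, as did MRP21, at 68.3 and 40.1 CPM. In WT these genes stayed within 26.4 to 28.5 CPM for MRPL16, 57.7 to 60.2 CPM for MRPL22, 39.6 to 45.1 CPM for RSM7 and 36.9 to 38.7 CPM for MRP21, so replicate 2 was the nearer to WT at each. Both rox1 libraries had read totals within the range of the other groups, and the labels do not set them apart.

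The ratio of summed large-subunit to summed small-subunit CPM was 1.36 to 1.40 in WT and 1.23 in both WT CoCl2 libraries. In rox1 it was 1.21 and 1.42 without CoCl2 and 1.34 and 1.46 with it, and untreated rox1 replicate 1 lay below both WT CoCl2 libraries. It was lowest in rox2 CoCl2 replicate 1, at 1.13, and highest in rox1 CoCl2 replicate 2, at 1.46.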
